A study of Homo sapiens with 16 samples.

Results

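EIF4A1, EIF4A2 and EIF4A3 are the 3 genes of the eIF4A family of DEAD-box RNA helicases, and they were followed through 12 short-read RNA-seq libraries and 4 pools of full-length cDNA (IsoSeq) from 2 human cell lines in which HNRNPH1, an RNA-binding splicing factor, had been lowered with a small interfering RNA (siRNA). The members were chosen by symbol: all rows named EIF4A1, EIF4A2 or EIF4A3, which gave 3 of the 61906 genes and 72 of the 251295 transcripts listed, 36 for EIF4A1 (ENSG00000161960.16), 27 for EIF4A2 (ENSG00000156976.17) and 9 for EIF4A3 (ENSG00000141543.12). EIF4A2 had drawn attention because its transcripts differed between the siRNAs in both lines, so for the 3 genes the values with siHNRNPH1 and with siNegative are described and not tested.

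The groups were HEK-293T siNegative, HEK-293T siHNRNPH1, HT-1080 siNegative and HT-1080 siHNRNPH1, with 3 replicates each, labelled biological. HEK-293T is a transformed line from human embryonic kidney with SV40 large T antigen, and HT-1080 comes from a fibrosarcoma. Neither line carries a stated further change, and each received 20 nM of siRNA, against HNRNPH1 or a negative control, 48 h before RNA was taken. The IsoSeq samples are pools of replicates, 1 per group.

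eIF4A proteins unwind RNA with the energy of ATP. EIF4A1 and EIF4A2 encode close paralogues that work in eIF4F, the complex of the cap-binding protein eIF4E, the scaffold eIF4G and eIF4A that loads ribosomes onto mRNA, and EIF4A2 has also been linked to the CCR4-NOT deadenylase. EIF4A3 encodes the core of the exon junction complex, which is left on mRNA upstream of splice junctions and takes part in nonsense-mediated decay.

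Library totals were 107.7 to 121.0 M expected counts in HEK-293T and 27.3 to 32.7 M in HT-1080. Levels are given as CPM, expected counts scaled to the library total, which are not divided by transcript length and are therefore compared between samples and not between genes. HNRNPH1 stood at 1104.6 to 1120.9 CPM in HEK-293T siNegative and at 234.1 to 394.3 with siHNRNPH1. In HT-1080 it stood at 605.8 to 634.6 and at 228.5 to 231.5 CPM. In each line every siHNRNPH1 library lay below every siNegative library. The log2 fold change was -1.76 in HEK-293T (SE 0.20, edgeR adjusted p = 0.00939; -1.58 without siHNRNPH1 replicate 1) and -1.49 in HT-1080 (SE 0.04, edgeR adjusted p = 6.76e-09). Adjustment was by Benjamini and Hochberg (BH), over every gene in the fit. Each SE of a log2 fold change is its absolute value divided by the square root of edgeR's F statistic. It therefore holds the same information as the test, and is left out for the members between the siRNAs. In HEK-293T the adjusted p was 0.0514 to 0.076 when any siNegative library or siHNRNPH1 replicate 2 was left out. Replicate 1 of HEK-293T siHNRNPH1 stood apart: its log2 CPM correlated with replicates 2 and 3 at r = 0.941 and 0.934 over 14879 genes, against 0.996 or more within the other groups and 0.999 between replicates 2 and 3, as a description across genes. The members' short-read values and the list counts of HEK-293T levels are therefore given with and without it. Of the markers listed for the lines, summed CPM of the 5 HEK-293T genes was 451 to 730 in HEK-293T and 32.0 to 40.4 in HT-1080, and that of the 5 HT-1080 genes was 11.9 to 14.2 and 6170 to 8100. LHX1, placed on the HEK-293T list, was higher in HT-1080 (12.65 to 19.02 CPM) than in HEK-293T (3.45 to 5.13 CPM).

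EIF4A2, the eIF4F helicase also linked to CCR4-NOT, had the largest log2 difference between the siRNAs of the 3 members in both lines. In HT-1080 it stood at 531.7, 530.5 and 527.1 CPM with siNegative and at 945.1, 945.0 and 963.4 CPM with siHNRNPH1. All 3 siHNRNPH1 libraries were far above the siNegative libraries, with a log2 fold change of 0.78. In HEK-293T it stood at 279.7, 280.2 and 291.3 CPM with siNegative and at 312.3, 427.5 and 449.4 CPM with siHNRNPH1. The groups did not overlap, and replicate 1, the library that stands apart, was the lowest of the siHNRNPH1 libraries. The log2 fold change there was 0.45 with it and 0.57 without it. As background, edgeR called 10.0% of all genes between the siRNAs in HEK-293T (61.8% without replicate 1) and 65.3% in HT-1080, and no call is read for the members since this contrast chose them. In bulk libraries a different number of expressing cells and a different amount of RNA per cell cannot be told apart.

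EIF4A1, the other eIF4F helicase, differed less between the siRNAs outside HEK-293T siHNRNPH1 replicate 1. In HT-1080 it stood at 1272, 1382 and 1258 CPM with siNegative and at 1511, 1516 and 1495 CPM with siHNRNPH1. These groups did not overlap, and the log2 fold change was 0.14. In HEK-293T it stood at 1466, 1460 and 1456 CPM with siNegative and at 2354, 1400 and 1398 CPM with siHNRNPH1. Replicate 1 was the only HEK-293T siHNRNPH1 library above the siNegative libraries, and the other 2 lay below all of them. The log2 fold change was 0.22 with replicate 1 and -0.12 without it, so that library sets the direction.

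EIF4A3, the exon junction complex helicase, stood at 144.7, 146.2 and 145.3 CPM in HEK-293T siNegative and at 215.1, 151.1 and 150.7 CPM in HEK-293T siHNRNPH1. All siHNRNPH1 libraries were higher, by 5.51 CPM on average in replicates 2 and 3 and by far more in replicate 1. The log2 fold change fitted to all 6 libraries was 0.23, and without replicate 1 it was -0.003. The small excess in CPM was thus not there after the scaling between libraries used in the fit. In HT-1080 the levels were 66.14, 76.67 and 68.12 CPM with siNegative and 60.41, 63.58 and 64.69 CPM with siHNRNPH1. There every siHNRNPH1 library was lower, with a log2 fold change of -0.23.

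The balance of the eIF4F helicases can be followed as EIF4A2 counts per 100 EIF4A1 counts, compared between libraries only, since the mix of EIF4A2 transcripts and so its mean length may differ between them. In HT-1080 the ratio was 41.81, 38.39 and 41.89 with siNegative and 62.55, 62.33 and 64.45 with siHNRNPH1. In HEK-293T it was 19.08, 19.19 and 20.0 with siNegative and 30.54 and 32.15 in siHNRNPH1 replicates 2 and 3. Replicate 1 lay on the other side of the siNegative libraries, at 13.27. The ratio was thus higher in all siHNRNPH1 libraries but that one, which makes the HEK-293T groups overlap.

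**Figure D1:**
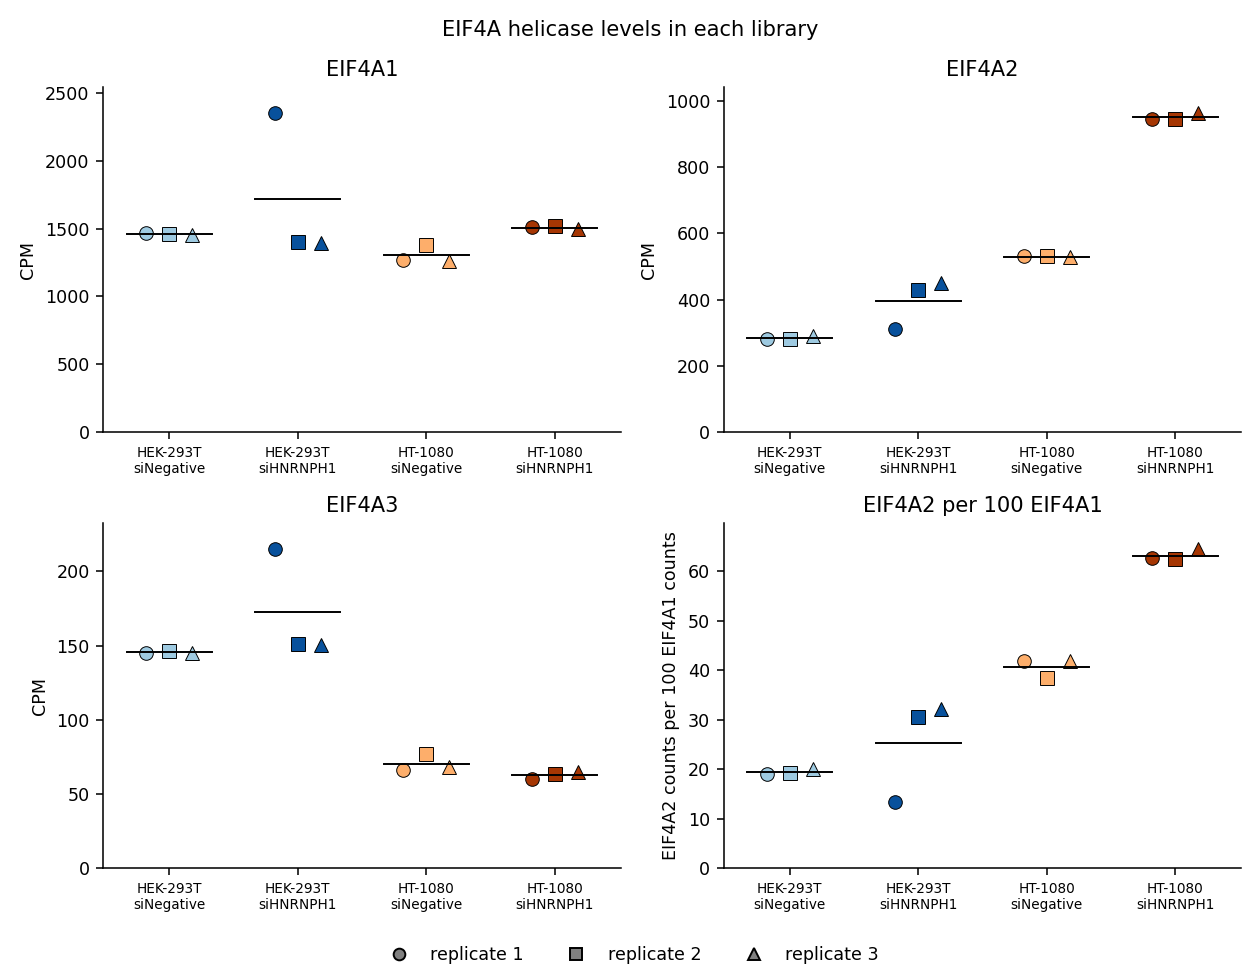
CPM of EIF4A1, EIF4A2 and EIF4A3 in each library, and EIF4A2 counts per 100 EIF4A1 counts, by group; symbols are replicates 1 to 3 and lines are group means (n = 3). EIF4A2 with siHNRNPH1 lies above siNegative in both lines, and HEK-293T siHNRNPH1 replicate 1 lies far from replicates 2 and 3 in all 4 panels.

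The transcripts of EIF4A2 showed where its higher counts lay. All 27 were above 0 in some library (33 of 36 for EIF4A1 and 9 of 9 for EIF4A3), and 5 reached a mean of 5% of the gene in a group. ENST00000323963.10 held 6.711%, 7.916% and 3.578% of EIF4A2 in HEK-293T siNegative and 49.12%, 37.21% and 36.14% with siHNRNPH1. In HT-1080 it held 19.17%, 16.16% and 18.0% with siNegative and 42.48%, 42.32% and 42.42% with siHNRNPH1. It was thus a minor transcript in HEK-293T controls, a larger one in HT-1080 controls and the largest in all siHNRNPH1 libraries, and the difference between the siRNAs was 34.8 percentage points in HEK-293T (30.6 without replicate 1) and 24.6 in HT-1080.

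ENST00000440191.6 differed in the same direction. Its share was 15.28%, 13.38% and 13.52% in HEK-293T siNegative and 20.38%, 19.5% and 20.23% with siHNRNPH1. In HT-1080 it was 15.14%, 20.09% and 15.11% with siNegative and 23.19%, 22.83% and 23.47% with siHNRNPH1. The groups did not overlap in either line, although siNegative replicate 2 of HT-1080 came nearest to the siHNRNPH1 libraries.

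Both transcripts that led in HEK-293T controls took smaller shares with siHNRNPH1. ENST00000485101.5 held 36.39%, 36.51% and 37.74% in HEK-293T siNegative and 11.73%, 21.6% and 21.39% with siHNRNPH1. In HT-1080 it held 28.77%, 26.91% and 29.21% and then 14.96%, 15.03% and 15.38%. ENST00000425053.5 held 19.58%, 21.53% and 22.92% in HEK-293T siNegative and 6.787%, 7.152% and 7.227% with siHNRNPH1. In HT-1080 its shares were 16.06%, 17.52% and 16.31% and then 4.577%, 4.889% and 4.74%. No siHNRNPH1 library overlapped a siNegative library for either transcript. The fifth, ENST00000426808.5, differed less, with means of 8.28% ± 0.0884 and 6.75% ± 0.881 (SD, n = 3) in HEK-293T and 7.65% ± 2.1 and 6.56% ± 0.554 (SD, n = 3) in HT-1080, where the groups overlapped.

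**Figure D2:**
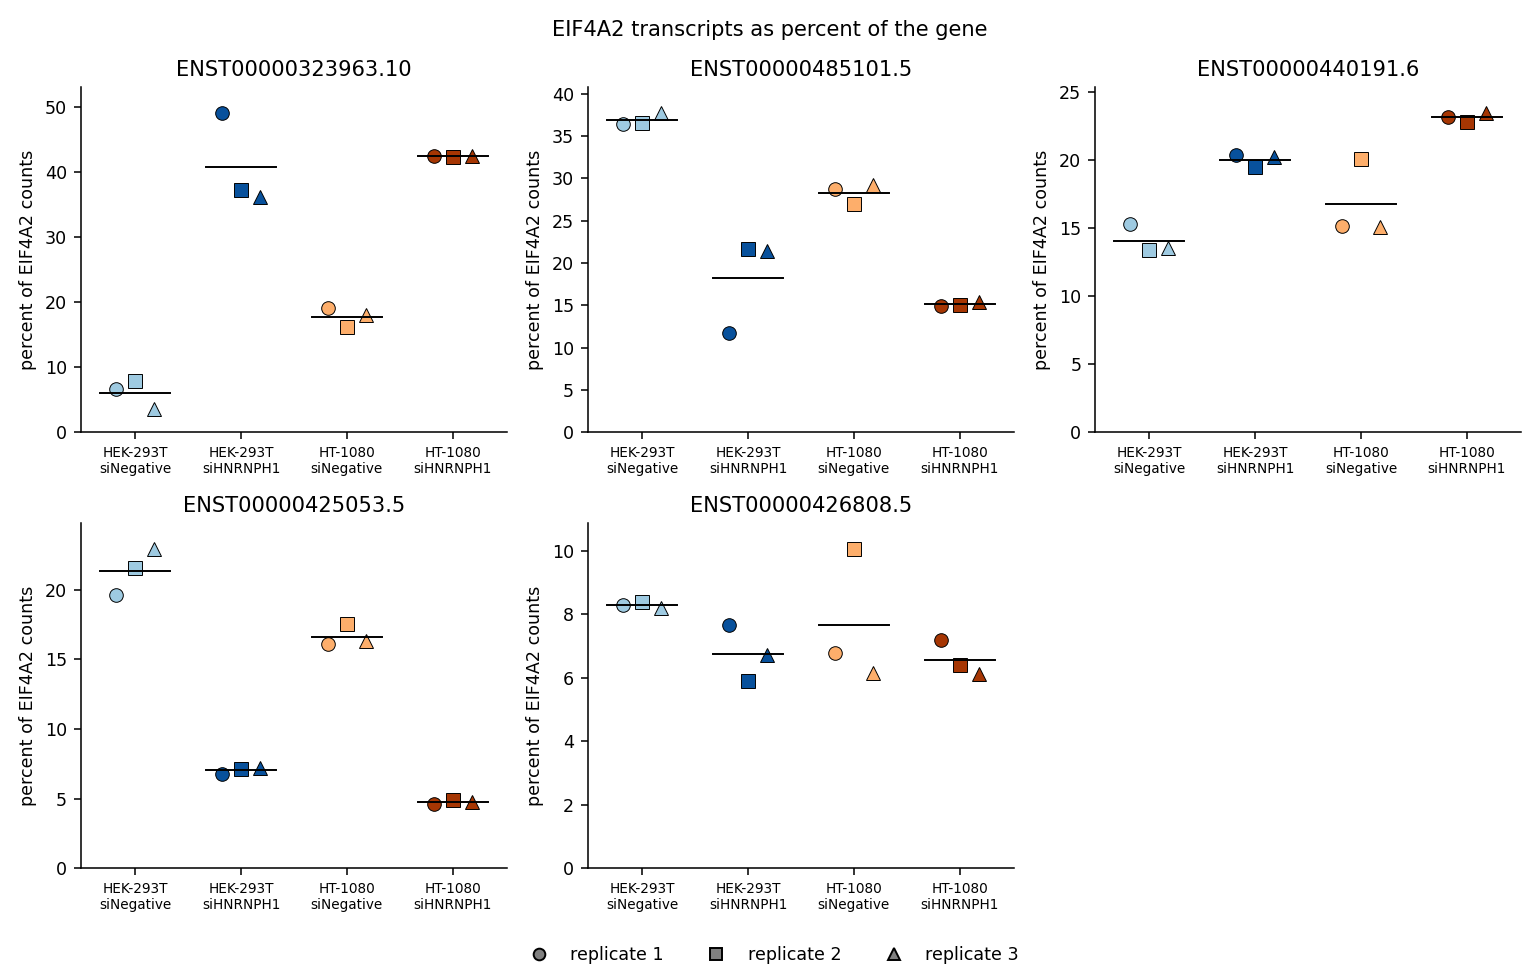
Share of EIF4A2 expected counts held by each of its 5 main transcripts, in percent, by group; symbols are replicates and lines are group means (n = 3). ENST00000323963.10 and ENST00000440191.6 lie higher, and ENST00000485101.5 and ENST00000425053.5 lower, in every siHNRNPH1 library of both lines.

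A share depends on all transcripts of the gene, so the same transcripts were also read in CPM. ENST00000323963.10 stood at 17.1 CPM ± 6.05 (SD, n = 3) in HEK-293T siNegative and at 158 CPM ± 4.55 (SD, n = 3) with siHNRNPH1, a ratio of means of 9.24. Replicate 1, which departed in gene totals, gave 153.4 CPM here, beside 159.1 and 162.4 CPM in replicates 2 and 3. In HT-1080 the transcript stood at 94.2 CPM ± 8.10 and at 403 CPM ± 4.67 (SD, n = 3), a ratio of 4.28. ENST00000440191.6 was 39.9 CPM ± 2.65 and 79.3 CPM ± 14.1 in HEK-293T, and 88.9 CPM ± 15.3 and 220 CPM ± 5.31 in HT-1080 (SD, n = 3), ratios of 1.99 and 2.48.

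The transcripts with smaller shares differed from each other in CPM. ENST00000485101.5 was 153.0, 142.8 and 153.9 CPM in HT-1080 siNegative and 141.4, 142.0 and 148.2 CPM with siHNRNPH1, so the groups overlapped and the ratio of means was 0.96. In HEK-293T it was 101.8, 102.3 and 109.9 CPM with siNegative and 36.64, 92.37 and 96.14 CPM with siHNRNPH1, a ratio of 0.717 that was 0.90 without replicate 1. ENST00000425053.5 was lower in CPM too: 54.75, 60.33 and 66.77 CPM against 21.2, 30.58 and 32.48 CPM in HEK-293T, and 85.37, 92.93 and 85.98 CPM against 43.26, 46.2 and 45.67 CPM in HT-1080. Its ratios of means were 0.463 and 0.511, close to each other in both lines.

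Summed over the gene, EIF4A2 was 113 CPM higher with siHNRNPH1 in HEK-293T (155 CPM without replicate 1) and 421 CPM higher in HT-1080. ENST00000323963.10 alone was 141 CPM higher in HEK-293T (144 without replicate 1) and 309 CPM higher in HT-1080. ENST00000440191.6 added 39.4 CPM (47.3 without replicate 1) and 131 CPM. The higher level of the gene was thus held by these transcripts, while ENST00000425053.5 differed by -32.5 CPM in HEK-293T and -43.1 CPM in HT-1080.

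**Figure D3:**
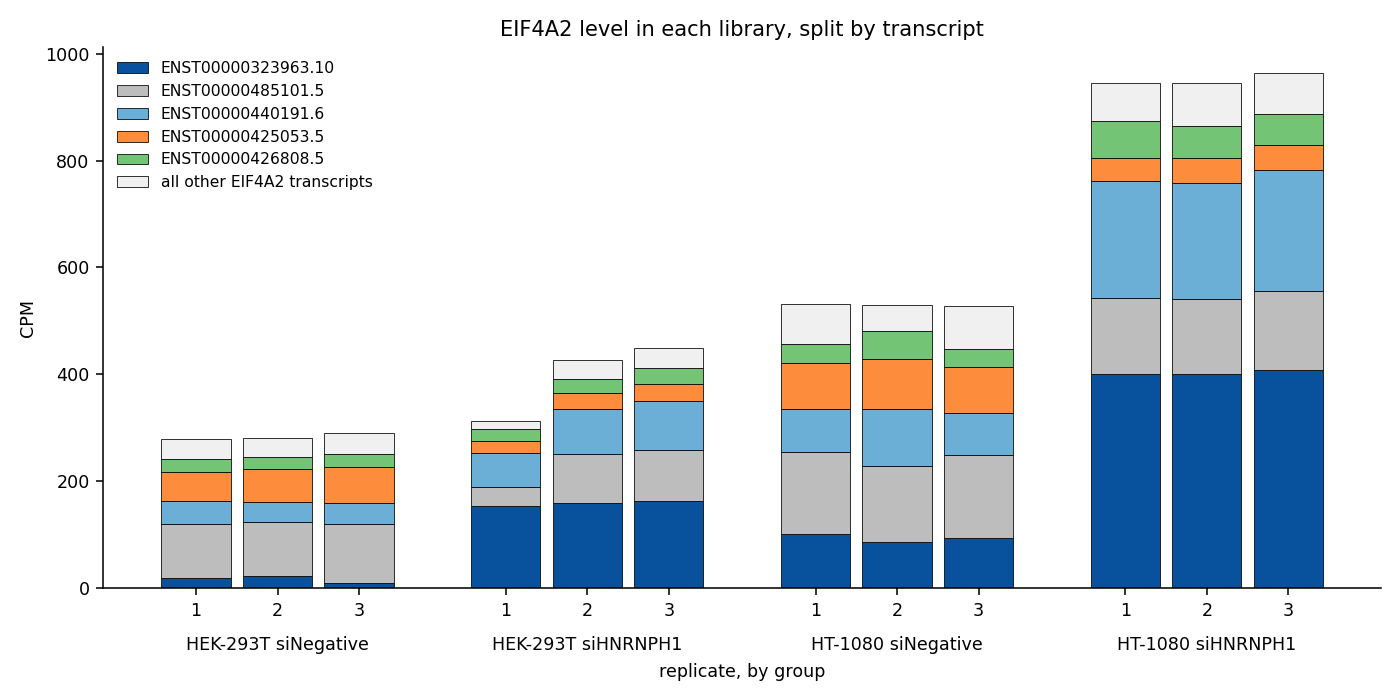
EIF4A2 level in each of the 12 libraries in CPM, split into its 5 main transcripts and all others. The dark blue part, ENST00000323963.10, goes from at most 22.18 CPM in HEK-293T siNegative to at least 153.4 CPM with siHNRNPH1, while ENST00000485101.5 (grey) is of similar height in all HT-1080 libraries.

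Among all EIF4A2 transcripts with at least 1% of the gene in any library, 9 in number, the share with siHNRNPH1 lay above siNegative without overlap for 2 and below for 6 in HEK-293T, and above for 2 and below for 3 in HT-1080. Over all genes with enough counts, 12.9% of such transcripts lay above and 15.2% below in HEK-293T, and 11.8% above and 11.8% below in HT-1080. The contrast chose the gene, so nothing is read from the excess. Of the smaller transcripts, ENST00000494445.1 had 2.39% ± 0.0201 and 1.03% ± 0.0706 in HEK-293T and 2.43% ± 0.226 and 0.906% ± 0.0275 in HT-1080 (SD, n = 3), lower without overlap in both. ENST00000492144.5 and ENST00000497177.1 were lower without overlap in HEK-293T, and their groups overlapped in HT-1080.

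The leading transcripts of EIF4A1 and EIF4A3 had like shares with both siRNAs. ENST00000293831.13 held most of EIF4A1. In HEK-293T its share was 90.6% ± 0.488 with siNegative and 90.2% ± 0.859 with siHNRNPH1, and in HT-1080 it was 85.4% ± 0.196 and 85.5% ± 1.18 (SD, n = 3), with overlap in both lines. ENST00000647795.1 held 94.2% ± 0.921 and 93.6% ± 0.471 of EIF4A3 in HEK-293T, and 75.0% ± 5.39 and 73.0% ± 2.36 in HT-1080 (SD, n = 3), again with overlap. Of the 9 EIF4A1 and 6 EIF4A3 transcripts with at least 1% of their gene, 7 and 6 overlapped in HEK-293T and 8 and 5 in HT-1080. Overlap is the common case: over all genes with enough counts, 12.9% of such transcripts lay above and 15.2% below in HEK-293T. In HT-1080 it was 11.8% each way, so nothing particular to these genes is read from the counts. In HEK-293T siHNRNPH1 replicate 1, with its far higher EIF4A1 and EIF4A3 levels, the same transcripts led, at 91.16% and 93.16% of their genes.

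The full-length cDNA models showed which parts of EIF4A2 are spliced in more than 1 way. EIF4A2 lies on the plus strand of chromosome 3, with 27 and 60 models in the HEK-293T siNegative and siHNRNPH1 pools and 58 and 45 in the HT-1080 pools, all within 186783292 to 186790277 (GRCh38.p13 per the submitters' processing notes; the model files name no build). Each model counts once whatever its abundance. Near the 3' end the exon that ends at 186787882 was joined either to an alternative exon at chr3:186788310-186788420, 111 nt long, or over it to the last exon, which starts at 186789125. A shorter form of the exon, 107 nt long and ending at 186788416, was present in 1 to 3 models per pool. The introns are 427 nt before the exon, 704 nt after it and 1242 nt over it. Many models kept the intron after the exon, or both introns, in the RNA.

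The inclusion junction was in 44.4% of the models of the HEK-293T siNegative pool and 25.0% of the siHNRNPH1 pool, and in HT-1080 in 29 of 58 and 12 of 45 models. The skipping junction was in 11.1% and 15.0% in HEK-293T and in 19.0% and 33.3% in HT-1080. Of the models that either skipped or included the exon, 3 of 15 (20.0%, exact Clopper-Pearson 95% interval 4.33 to 48.1%) skipped it in HEK-293T siNegative and 9 of 24 (37.5%, 18.8 to 59.4%) in HEK-293T siHNRNPH1. In HT-1080 it was 11 of 40 (27.5%, 14.6 to 43.9%) with siNegative and 15 of 26 (57.7%, 36.9 to 76.6%) with siHNRNPH1. Skipping models were thus a larger share with siHNRNPH1 in both lines, but the intervals overlap, they cover counting error only, and 1 pool per group allows no test. The grouping into skipped and included was made after the models had been seen. The HEK-293T siHNRNPH1 pool is labelled as pooled replicates, so any part of replicate 1 in it cannot be taken out.

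Of the models whose last intron was spliced out, 3 of 7 skipped the exon in HEK-293T siNegative, 9 of 16 in HEK-293T siHNRNPH1, 11 of 24 in HT-1080 siNegative and 15 of 18 in HT-1080 siHNRNPH1. Models that kept both introns were 40.7% and 58.3% in HEK-293T and 29.3% and 37.8% in HT-1080. Models that included the exon and kept the next intron were 29.6% and 13.3% in HEK-293T and 27.6% and 17.8% in HT-1080. Whether ENST00000323963.10 is the skipping form and ENST00000485101.5 or ENST00000425053.5 an including one was not determined here, because no annotation of the transcripts' exons was used.

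**Figure D4:**
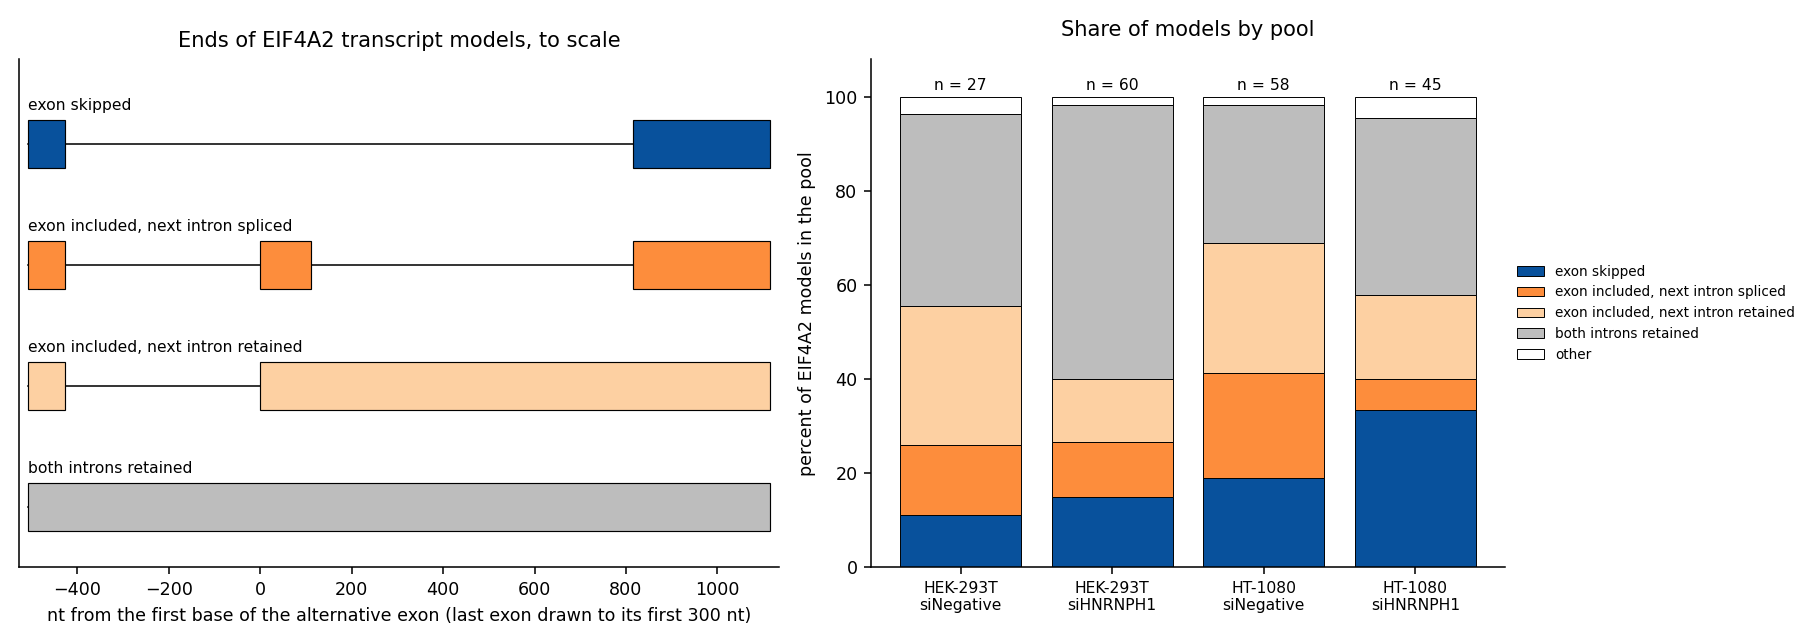
Left, the 4 ways in which EIF4A2 models end, drawn to scale in nt from the first base of the alternative exon; right, percent of the models of each IsoSeq pool in each class (n models above each bar, no replicates). The share that skips the exon is 11.1% and 15.0% in the HEK-293T pools and 19.0% and 33.3% in the HT-1080 pools.

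EIF4A2 models varied at other splice sites too, again with 1 pool per group and no test. After the first common exon, which ends at 186783639, models joined to 186784429 or 186784432, acceptors 3 nt apart. The upstream one was in 22.2% and 23.3% of HEK-293T models and 20.7% and 35.6% of HT-1080 models, siNegative first. The exon at chr3:186784962-186785101, 140 nt by its ends, was skipped by a junction from 186784696 to 186785883 in 29.6% and 23.3% of HEK-293T models and in 34.5% and 33.3% of HT-1080 models. Acceptors at 186787479 and 186787495 were both used, the first in 6.67% to 10.3% of models of every pool.

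The control libraries allow a test that the choice of members did not use, that of siNegative HT-1080 against siNegative HEK-293T. The lines also differ in depth, and a difference of line and of sequencing cannot be told apart. Most genes differ here: edgeR called 86.6% of 19776 genes, 40.8% higher and 45.8% lower in HT-1080. EIF4A2 was higher in HT-1080, with a log2 difference of 1.16 (SE 0.04, edgeR BH-adjusted p = 2.47e-09), and EIF4A3 was lower, with -0.79 (SE 0.06, edgeR BH-adjusted p = 5.87e-07). Both held in all 3 replicates of each line, at 527.1 to 531.7 against 279.7 to 291.3 CPM for EIF4A2 and 66.14 to 76.67 against 144.7 to 146.2 CPM for EIF4A3. EIF4A1 gave 0.09 (SE 0.05, edgeR BH-adjusted p = 0.123). In CPM it was lower in HT-1080, at 1258 to 1382 against 1456 to 1466, so its direction depends on the scaling between libraries. The median log2 difference of all genes in this fit was -0.10.

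Transcript usage, the split of a gene over its transcripts, was called by limma diffSplice in 72.7% of the 12720 genes tested between the control lines, and all 3 members were among them. The BH-adjusted p was 8.79e-28 for EIF4A1, 1.27e-12 for EIF4A2 and 4.48e-11 for EIF4A3. A call is thus the common case here, and the members are described by the sizes. HT-1080 minus HEK-293T was 11.7 percentage points for ENST00000323963.10 and -8.58 points for ENST00000485101.5, each without overlap and with an exact two-sided permutation p = 0.1, the smallest that 3 libraries against 3 allow. For ENST00000425053.5 it was -4.72 points at the same p, while ENST00000440191.6 and ENST00000426808.5 overlapped, with exact permutation p-values of 0.3 and 0.7.

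The leading EIF4A3 transcript, ENST00000647795.1, differed by -19.3 points in HT-1080 controls (exact permutation p = 0.1). ENST00000576547.2 of the same gene was almost absent from HEK-293T, at 0.2307%, 0.0811% and 0.07931% in siNegative, and reached 10.38%, 16.01% and 8.45% in HT-1080 siNegative. With siHNRNPH1 it was 7.77%, 17.91% and 19.64% in HT-1080, which overlaps siNegative. ENST00000293831.13 of EIF4A1 differed by -5.17 points (exact permutation p = 0.1), with the rest spread over small transcripts. Of these, ENST00000577269.5 had 2.55% ± 0.313 in HEK-293T and 0.0366% ± 0.0633 in HT-1080 controls, and ENST00000583389.5 was listed at 0 in every HEK-293T library and had 1.49% ± 0.00836 in HT-1080 (SD, n = 3).

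RSEM divides reads between near-identical sequences, and the members have processed pseudogenes and a readthrough gene. The 13 symbols beginning EIF4A1P summed to 2.92 to 6.49 CPM in HEK-293T and 8.13 to 11.69 CPM in HT-1080, and the 5 beginning EIF4A2P to at most 0.755 CPM, small beside their parents. SENP3-EIF4A1, annotated as a readthrough of EIF4A1 with its upstream neighbour, stood at 7.17 CPM ± 0.501 in HT-1080 siNegative and 4.53 CPM ± 0.746 with siHNRNPH1 (SD, n = 3). It fell by 0.73 on the log2 scale (SE 0.13, edgeR BH-adjusted p = 6.25e-04), and was 8.78 CPM ± 0.771 and 8.17 CPM ± 0.812 in HEK-293T (SD, n = 3, edgeR BH-adjusted p = 0.629, and 0.013 without siHNRNPH1 replicate 1, with a log2 fold change of -0.23). Reads of this gene and of EIF4A1 cannot be told apart over their shared exons, so its values are uncertain.

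The partners of the helicases were read from lists of genes and tested between the siRNAs. Of 20 genes of eIF4F and its regulators, 1 rose and 1 fell in HEK-293T, and 6 rose and 9 fell in HT-1080. The median log2 fold change was -0.13 in HEK-293T and -0.16 in HT-1080, beside 0.02 and 0.01 for all genes. Without replicate 1, 4 rose and 11 fell in HEK-293T. Over all genes, edgeR called 5.12% higher and 4.88% lower in HEK-293T (30.5% and 31.3% without replicate 1), and 32.7% higher and 32.6% lower in HT-1080. PABPC4, a poly(A)-binding protein, rose in both lines. Its log2 fold change was 0.79 (SE 0.14, edgeR BH-adjusted p = 0.0265) in HEK-293T, while HT-1080 had 0.40 (SE 0.04, edgeR BH-adjusted p = 1.48e-05). PAIP1, which bridges poly(A)-binding protein and eIF4A, fell by 0.65 (SE 0.11) and by 0.39 (SE 0.06) on the log2 scale, at adjusted edgeR p-values of 0.0215 and 1.96e-04, HEK-293T first. In HEK-293T the calls of PABPC4, PAIP1, RBM8A, BTG2 and DDX19A, the genes called the same way in both lines, were each lost when any siNegative library or siHNRNPH1 replicate 2 was left out (edgeR BH-adjusted p = 0.0589 to 0.198), and those of PABPC4, PAIP1 and RBM8A also without siHNRNPH1 replicate 3. All 5 were called without siHNRNPH1 replicate 1, with the same direction.

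PDCD4, an inhibitor that binds eIF4A and keeps it out of eIF4F, rose in HT-1080 from 65.5 CPM ± 0.268 to 123 CPM ± 3.82 (SD, n = 3), a log2 fold change of 0.84 (SE 0.04), and MKNK2, a kinase of eIF4E, rose by 0.74 (SE 0.04). EIF4E3, an eIF4E relative, fell by 0.80 (SE 0.08), and EIF4EBP1, a repressor of eIF4E, by 0.69 (SE 0.08). All 4 had an edgeR BH-adjusted p of at most 4.77e-05 there, and in HEK-293T none of them passed the test with all libraries (0.135 to 0.698). Without HEK-293T siHNRNPH1 replicate 1, PDCD4 rose there by 0.33 (edgeR BH-adjusted p = 6.15e-09) and EIF4E3 fell by 0.34 (1.91e-06), while MKNK2 (0.359) and EIF4EBP1 (0.712) did not pass. Of the complex itself, EIF4E fell by 0.45 and EIF4G1 by 0.29 in HT-1080 while EIF4G3 rose by 0.66, genes named here after their values were seen. In HEK-293T, EIF4G3 stood lower in every siHNRNPH1 library, at 310.0 CPM ± 6.52 and 233.5 CPM ± 81.2 (SD, n = 3), with a log2 fold change of -0.45 (edgeR BH-adjusted p = 0.336) that was -0.20 without replicate 1 (2.97e-06). The effect on EIF4G3 differed between the lines by 1.04 (edgeR interaction, BH-adjusted p = 0.0194). EIF4B, a cofactor of eIF4A also named after its values were seen, had in HT-1080 a rise of 0.16 (adjusted p from edgeR 0.00762), and in HEK-293T its log2 fold change was -0.50 (0.0507), or -0.44 without replicate 1 (3.86e-12). Its effect differed between the lines by 0.59 (edgeR interaction, BH-adjusted p = 0.00354). EIF4E in HEK-293T had -0.11 (0.655, and 0.907 without replicate 1), and EIF4G1 -0.43 (0.141, and 3.31e-09 without replicate 1).

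Transcript usage was called in 3 of 17 of these genes in HEK-293T (15 of 17 without siHNRNPH1 replicate 1), where limma diffSplice called 8.65% of all genes (39.8% without siHNRNPH1 replicate 1), and in 9 of 16 in HT-1080, where it called 19.6%. EIF4H, a cofactor that stimulates the eIF4A helicase, had about the same level in both groups of HEK-293T (467 CPM ± 13.2 and 472 CPM ± 6.49, SD, n = 3), but its transcripts switched. ENST00000353999.6 held 62.9% ± 0.959 of EIF4H in HEK-293T siNegative and 9.83% ± 0.891 with siHNRNPH1, and 65.2% ± 1.27 and 26.7% ± 0.324 in HT-1080 (SD, n = 3). ENST00000265753.13 differed the other way. Its share was 29.06%, 28.6% and 30.53% in HEK-293T siNegative against 70.42%, 82.55% and 84.04% with siHNRNPH1, while HT-1080 had 28.7% ± 0.766 and 66.3% ± 0.38 (SD, n = 3). No libraries overlapped. The limma diffSplice BH-adjusted p for EIF4H was 9.02e-04 in HEK-293T (0.0581 to 0.071 when a siNegative library was left out, and 1.11e-28 without siHNRNPH1 replicate 1) and 7.18e-22 in HT-1080. The MKNK2 transcript ENST00000250896.9 held 77.1% ± 0.884 and 50.8% ± 3.43 of its gene in HEK-293T, siNegative first, while HT-1080 had 61.5% ± 2.23 and 45.6% ± 1.16 (SD, n = 3). MKNK2 usage was called in both lines (limma diffSplice adjusted p = 0.00156 and 3.56e-07), but the HEK-293T call was lost without siNegative replicate 2 (0.0849) or 3 (0.0819) and with edgeR's diffSpliceDGE (0.648), and was 9.51e-15 without siHNRNPH1 replicate 1. PABPC4 usage was called by diffSplice in HT-1080 (adjusted p = 5.09e-05), and in HEK-293T the value was 0.16 (1.7e-10 without siHNRNPH1 replicate 1).

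The exon junction complex, where EIF4A3 works, had 12 genes tested, of which 10 fell and 0 rose in HT-1080, with a median log2 fold change of -0.38. In HEK-293T 1 fell and 0 rose, with a median of -0.03, and without replicate 1 it was 8 and 1, with a median of -0.18. Of all genes, edgeR called 32.6% lower and 32.7% higher in HT-1080. In HEK-293T it called 4.88% lower and 5.12% higher (31.3% and 30.5% without replicate 1). RBM8A, the Y14 subunit that pairs with MAGOH, fell in both lines. The log2 fold changes were -0.59 (SE 0.13, edgeR BH-adjusted p = 0.0439) and -0.54 (SE 0.05, edgeR BH-adjusted p = 4.28e-06), HEK-293T first. MAGOHB, a copy of MAGOH, fell from 24.9 CPM ± 1.06 to 11.5 CPM ± 1.22 in HT-1080 (SD, n = 3, log2 fold change -1.18, edgeR BH-adjusted p = 1.37e-06), and UPF3B, the link to nonsense-mediated decay, fell by 0.78 (SE 0.06). In HEK-293T they were at 24.2 and 27.4 CPM and at 75.3 and 76.2 CPM, siNegative first (edgeR BH-adjusted p = 0.467 and 0.959, and 0.186 and 0.282 without siHNRNPH1 replicate 1). Usage was called by limma diffSplice in 6 of 12 genes in HT-1080 and 0 of 12 in HEK-293T, where 7 of 12 were called without replicate 1. Over all genes it called 19.6% in HT-1080 and 8.65% in HEK-293T (39.8% without replicate 1). The genes ACIN1, RNPS1 and PYM1 had the smallest p in HT-1080, at 1.62e-04, 2.29e-04 and 0.00391, and diffSpliceDGE called ACIN1 but not RNPS1 (0.324) or PYM1 (1). For PYM1, which takes the complex off mRNA, ENST00000398213.4 held 71.3% ± 1.49 of the gene with siNegative and 45.3% ± 3.78 with siHNRNPH1 in HT-1080 (SD, n = 3).

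Of 16 genes of the CCR4-NOT deadenylase and its BTG/TOB adaptors, 4 rose and 9 fell in HT-1080, and 1 rose and 0 fell in HEK-293T (6 and 4 without replicate 1). The shares of all genes called higher and lower were 32.7% and 32.6% in HT-1080. In HEK-293T they were 5.12% and 4.88% (30.5% and 31.3% without replicate 1). BTG2, an adaptor that recruits the deadenylase, rose in both lines, with log2 fold changes of 0.77 (SE 0.10, edgeR BH-adjusted p = 0.0131) and 0.81 (SE 0.05, edgeR BH-adjusted p = 4.11e-07), HEK-293T first. CNOT9, a subunit of the core, fell by 0.92 in HT-1080 (SE 0.06, edgeR BH-adjusted p = 4.63e-07). It had a mean of 119 CPM in both groups of HEK-293T, with an SD of 0.909 with siNegative and 19.3 with siHNRNPH1. Without siHNRNPH1 replicate 1 its log2 fold change there was 0.075 (edgeR BH-adjusted p = 0.0318). BTG1 fell by 0.64 (SE 0.06) and TNKS1BP1 rose by 0.53 (SE 0.05) in HT-1080, at adjusted edgeR p-values of 8.73e-06 and 9.01e-06. In HEK-293T BTG1 had -0.46 (edgeR BH-adjusted p = 0.0534) and TNKS1BP1 0.57 (0.0709), the same directions. Without siHNRNPH1 replicate 1 they had -0.42 (edgeR BH-adjusted p = 5.04e-08) and 0.43 (1.97e-09) there. Usage was called by diffSplice for CNOT2 (adjusted p = 0.049) and CNOT8 (0.0186) in HT-1080 and for CNOT3 (0.0103) in HEK-293T, and diffSpliceDGE gave 1 for each. The list thus had 2 of 14 genes called in HT-1080 and 1 of 16 in HEK-293T (6 of 16 without siHNRNPH1 replicate 1). Over all genes it was 19.6% and 8.65% (39.8%). The CNOT2 call was lost in all 6 fits that left out 1 library (0.0562 to 0.219), that of CNOT8 without HT-1080 siNegative replicate 1 or siHNRNPH1 replicate 2 or 3 (0.138 to 0.314), and that of CNOT3 in all such fits (0.0509 to 0.242) but the one without siHNRNPH1 replicate 1 (9.53e-10).

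Among the other DEAD-box helicases, 4 of 30 tested rose and 18 fell in HT-1080, with a median log2 fold change of -0.21. In HEK-293T 1 of 31 rose and 1 fell (10 and 15 without replicate 1). Among all genes, 32.7% were called higher and 32.6% lower in HT-1080. The shares in HEK-293T were 5.12% and 4.88% (30.5% and 31.3% without replicate 1). DDX19A, a helicase of mRNA export, fell in both lines. Its log2 fold changes were -0.86 (SE 0.11, edgeR BH-adjusted p = 0.0101) and -0.30 (SE 0.04, edgeR BH-adjusted p = 1.64e-04), HEK-293T first. The gene that rose in HEK-293T was DDX25, named after its value was seen, from 0.0809 to 0.409 CPM, a very low level. In HT-1080, DDX39A fell by 1.02 (SE 0.06) and DDX46 by 0.76 (SE 0.05), while DDX59 rose by 0.32 (SE 0.07) and DDX24 by 0.20 (SE 0.04). None of them passed in HEK-293T with all libraries (edgeR BH-adjusted p = 0.247 to 0.591). Without siHNRNPH1 replicate 1, DDX39A had -0.12 there (edgeR BH-adjusted p = 0.00643) and DDX46 -0.29 (1.55e-08). In the same fit DDX59 had -0.08 (0.177) and DDX24 0.13 (4.71e-04). For this list diffSplice called usage in 4 of 29 genes in HT-1080 and 5 of 29 in HEK-293T (17 of 29 without siHNRNPH1 replicate 1). Over all genes it called 19.6% and 8.65% (39.8%). Usage of DDX5 was called in both lines (diffSplice adjusted p = 0.0132 and 3.78e-06), and that of DDX39B in HT-1080 (0.00322). With diffSpliceDGE these were 1, 0.396 and 0.729. The HEK-293T call of DDX5 was lost without any 1 siNegative library (0.222 to 0.333) and with transcripts of at least 5% of the gene only (0.148). That of DDX39B was lost without HT-1080 siNegative replicate 3 or siHNRNPH1 replicate 2 or 3 (0.0614 to 0.0649) and with transcripts of at least 5% only (0.723). Of the 8 snoRNA symbols hosted in introns of EIF4A1 or EIF4A2, 1 gene passed the filter in HT-1080 and 0 in HEK-293T, and none was called, so no level is given for them. The difference of the siRNA effect between the lines was called by edgeR for 19.0% of genes (8.13% higher and 10.8% lower in HT-1080), and without HEK-293T siHNRNPH1 replicate 1 for 49.0% (22.7% and 26.4%). For the exon junction complex it was called lower in 3 of 12 genes and higher in 0, and without that replicate in 6 and 0. CCR4-NOT had 3 lower and 0 higher of 16 (9 and 2 without that replicate). The DEAD-box list had 4 lower and 2 higher of 31 (17 and 4), and eIF4F 0 lower and 3 higher of 20 (8 and 6).

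**Figure D5:**
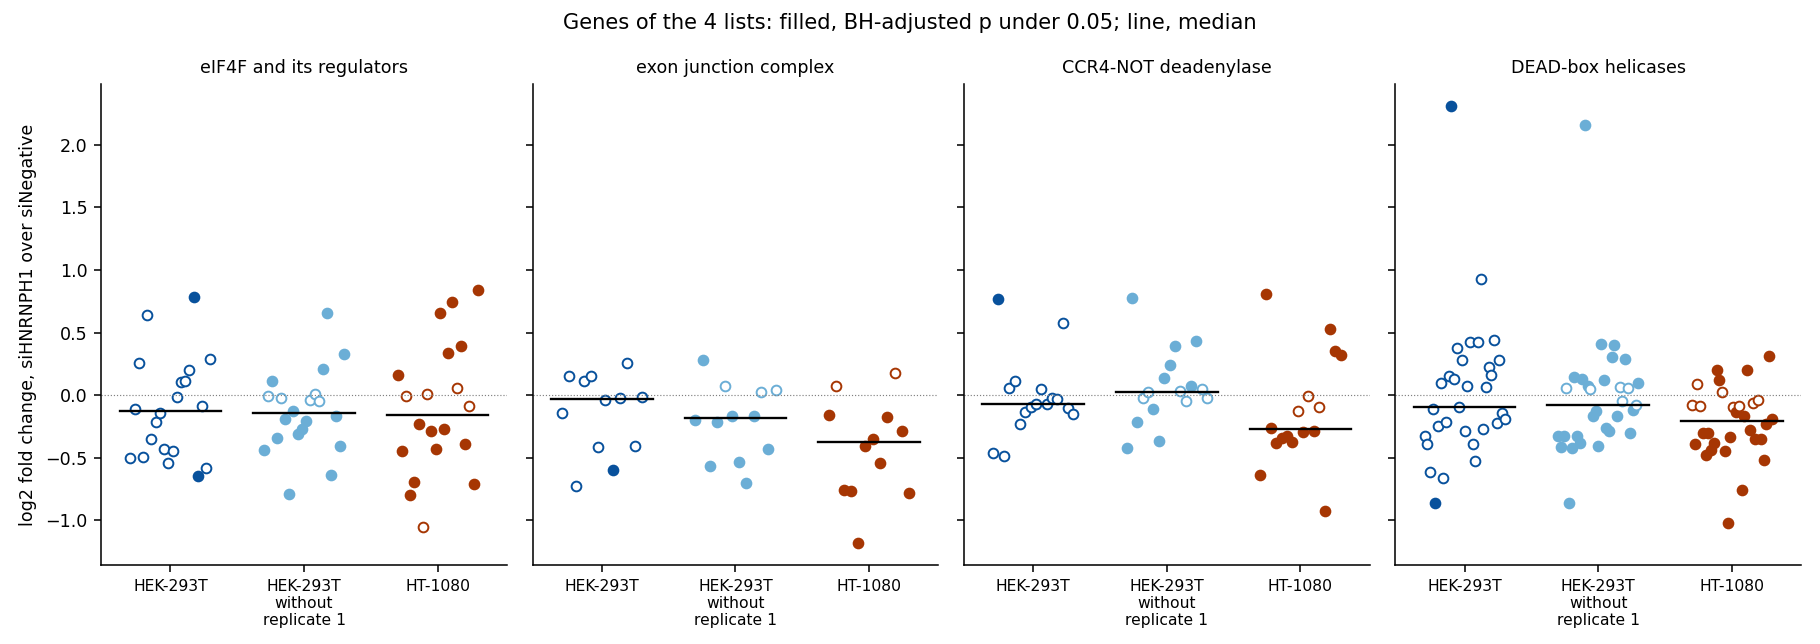
Log2 fold change of siHNRNPH1 over siNegative for the genes of 4 lists, in HEK-293T, in HEK-293T without siHNRNPH1 replicate 1 and in HT-1080; each point is a gene, filled where the edgeR BH-adjusted p is under 0.05, and lines are medians. In HT-1080, 10 of 12 exon junction complex genes are filled and below 0, beside 32.6% of all genes called lower there.

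The genes most like each member over the 12 libraries were found by Pearson r of log2 CPM among 6758 genes with at least 20 CPM in each line, as a description, since line, siRNA and replicate 1 of HEK-293T siHNRNPH1 are shared by all points. For EIF4A1 they were BRK1 (0.995), UROD (0.985) and CD81 (0.98), all with an SD in HEK-293T siHNRNPH1 of 41.8 CPM or more, as EIF4A1 itself is spread there. For EIF4A2 they were OSTM1 (0.994), RNF44 (0.992) and ZBTB4 (0.991). ZBTB4 went from 37.7 to 53.8 CPM in HEK-293T and from 89.2 to 166 CPM in HT-1080. For EIF4A3 they were CCT3 (0.997), MAZ (0.996) and ANAPC7 (0.996).

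Among 9036 transcripts of other genes, those whose share followed ENST00000323963.10 most closely belonged to SPEG (0.984), AGAP3 (0.981), MYL6 (0.975), C17orf49 (0.974) and MKNK2 (0.972). The MKNK2 transcript, ENST00000309340.11, held 13.3% ± 1.10 and 36.8% ± 2.87 of its gene in HEK-293T and 17.6% ± 3.10 and 40.4% ± 0.525 in HT-1080 (SD, n = 3). The MYL6 transcript, ENST00000550697.6, held 19.3% and 64.5%, then 29.1% and 67.3%.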

How the data were processed

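Short-read RNA-seq covered 12 libraries and IsoSeq 4 pools. The authors deposited expected counts per transcript, estimated with RSEM on GRCh38.p13 per the submitters' processing notes, in 1 table per line, and IsoSeq transcript models as exon positions without counts. RSEM's version, the annotation release and strandedness are not given in the sources used here. Columns were matched through the labels. For each gene the transcripts' values were added up, then rounded. Genes past filterByExpr were scaled by TMM and tested with edgeR 4.0.16 (quasi-likelihood, two-sided). Usage was tested with limma 3.58.1 diffSplice (voom weights, Simes p per gene), and shares with exact permutation tests. P-values were Benjamini-Hochberg (BH) adjusted over all genes of a fit, with a threshold of 0.05. IsoSeq loci were found by overlap with RefSeq gene spans of GRCh38.p14, used to find the genes only. Alternatives included DESeq2 1.42.0, RLE scaling, no filter, diffSpliceDGE and leaving out each library. Steps were tested on simulated data, where many diffSplice calls were of unchanged genes. These were 62 of 78 calls in HEK-293T, 39 of 130 in HT-1080 and 143 of 239 between the control lines. It found 16 of 193 changed genes in HEK-293T, 91 of 193 in HT-1080 and 96 of 195 between the control lines. Usage calls of named genes are therefore given with diffSpliceDGE where it differs. Counts of usage calls within the lists come from diffSplice alone and share this limit.

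Named genes were the members with every transcript of at least 5% of the gene in a group, HNRNPH1, and, per list and direction, up to 3 genes called in both lines and up to 2 per line with a mean count of at least 50, plus up to 3 per list by the smallest usage p; for likeness, the 3 genes per member and 5 transcripts with the highest r. Members and lists were chosen with earlier results of these data known. The main fits did not pair samples by replicate number, and whether the numbers pair them was not settled (closing section).

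Expected counts were 150641 to 253674 for EIF4A1, 31067 to 51629 for EIF4A2 and 16074 to 23174 for EIF4A3 in HEK-293T, and 34721 to 49507, 14519 to 30857 and 1764 to 2309 in HT-1080. Intervals on shares of models cover counting error only. No sequence is printed.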

Additional observations from a re-analysis of the deposited data

Results flagged for a closer look

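Of the genes named in the lists, 7 differed between the lines in their response to siHNRNPH1 by the edgeR interaction, given here as the log2 effect in HT-1080 minus that in HEK-293T. Of all genes tested, 19.0% did so (49.0% without HEK-293T siHNRNPH1 replicate 1). Genes were named in part for a call within a single line of these same libraries, which favours such a difference. Nothing is therefore read from the count of named genes. MAGOHB differed by -1.41 (BH-adjusted p = 2e-04), UPF3B by -0.84 (4.33e-04), CNOT9 by -0.96 (6.55e-04) and DDX39A by -1.38 (0.0154), each more negative in HT-1080. PDCD4 differed by 0.48 (0.00758), DDX19A by 0.49 (0.00639) and DDX59 by 0.39 (0.0465). Without replicate 1 the differences were -1.30, -0.87, -1.05, -0.94, 0.47, 0.51 and 0.35 in the same order, with the same signs.

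EIF4A3 moved in opposite directions in CPM without overlap, higher with siHNRNPH1 in HEK-293T (log2 fold change 0.23) and lower in HT-1080 (-0.23). The difference was not tested, since the contrast chose the gene. Without HEK-293T siHNRNPH1 replicate 1 the HEK-293T value was -0.003.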

How the results depend on the processing

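Counts of called genes in HEK-293T rested on the libraries used. Between the siRNAs edgeR called 1997 genes there, DESeq2 3982, a fit over all 12 libraries 4551 and no expression filter 1302, and leaving out 1 library gave 0 to 12557 (20, 0 and 0 without siNegative replicates 1, 2 and 3, with 3525, 3517 and 3486 at an unadjusted p under 0.05, and 12557, 245 and 639 without siHNRNPH1 replicates 1, 2 and 3). The fit over all 12 libraries called 6237 in HT-1080 in place of 10538. For the interaction, leaving out 1 library gave 2776 to 9535 beside 4036. For usage, diffSpliceDGE called 667 and 558 genes in HEK-293T and HT-1080 and 5727 between the control lines, beside 1126, 2108 and 9242 by diffSplice, and leaving out 1 library gave 323 to 5323 in HEK-293T and 1379 to 2036 in HT-1080.
Of the lists in HEK-293T, eIF4F had 2 calls, and 5 with DESeq2, 8 over all 12 libraries, 0 without a filter and 0 to 15 leaving out 1 library. The exon junction complex had 1, and 3, 3, 0 and 0 to 9. CCR4-NOT had 1, and 3 with DESeq2, 3 over all 12 libraries and 0 to 10 leaving out 1 library. The DEAD-box helicases had 2, and 5, 7 and 0 to 25. In HT-1080 the fit over all 12 libraries left 6 calls of 10 in the exon junction complex and 13 of 22 in the DEAD-box helicases.
The replicate block (a term for the replicate number) gave 0 calls in HEK-293T by edgeR (4169 genes at an unadjusted p under 0.05) and 0 in all 4 lists there, and 2535 for the interaction; it moved no other count by over 1.5 times. In HEK-293T it ended the calls of HNRNPH1 (edgeR BH-adjusted p = 0.0665), BTG2, DDX19A, PABPC4, PAIP1 and RBM8A (0.094 to 0.157), with the same direction, and the usage call of DDX5 (limma, 0.154); in HT-1080 it ended those of CNOT2 (0.154) and DDX19A (0.0702). Same-numbered libraries deviated together at r = 0.12, 0.11 and 0.03 in HEK-293T and 0.03, 0.11 and 0.06 in HT-1080. Between the control lines they did so at -0.04, -0.13 and -0.06. Libraries with other numbers had r of -0.12 to 0.08 in HEK-293T and -0.12 to 0.06 in HT-1080. These weak values cannot decide whether the numbers pair the samples, and a weak pairing within a line remains possible.
Among the members, EIF4A1 between the control lines was 0.11 with DESeq2 (BH-adjusted p = 0.0404) and -0.045 without a filter (edgeR BH-adjusted p = 0.473), and 0.03 to 0.10 leaving out 1 library. EIF4A2 and EIF4A3 kept their direction and call there in every alternative run. The difference of ENST00000323963.10 stayed between 30.6 and 37.1 points in HEK-293T and 23.8 and 25.3 in HT-1080 when 1 library was left out. PABPC4, PAIP1 and RBM8A were not called in HEK-293T without a filter (edgeR BH-adjusted p = 0.0608, 0.0533 and 0.0955), nor EIF4EBP1 and DDX24 in HT-1080 with all 12 libraries (0.16 and 0.0878). With diffSpliceDGE the usage calls of DDX19A were also lost (0.719 in HEK-293T and 1 in HT-1080), and those of EIF4H were kept in both lines. The causes were not tested.
The share of EIF4A2 models that skip the exon was 45.8% and 83.3% in the HT-1080 siNegative and siHNRNPH1 pools among models with the last intron spliced, beside 27.5% and 57.7%, an alternative chosen after seeing the data, as was counting models that start in the first exon or distinct chains of junctions.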

Other observations

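EIF4A1 and EIF4A3 had fewer full-length models than EIF4A2. EIF4A1, on the plus strand of chromosome 17, had 11 and 13 models in the HEK-293T siNegative and siHNRNPH1 pools and 27 and 24 in the HT-1080 pools. In 0, 2, 2 and 2 models of these pools, in the same order, exons upstream of the usual first exon were joined on from 7571479 to 7574260, in place of the more common junction from 7572864 to 7574260 that 8, 6, 13 and 9 models carried. Junctions further upstream, from 7562263 on, were in the same numbers of models. Whether these are models of the readthrough gene SENP3-EIF4A1 was not determined. EIF4A3, on the minus strand of chromosome 17, had 3, 5, 5 and 5 models.

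Genes that share sequence with the members differed between the control lines. Of 6 tested, 5 were higher in HT-1080 siNegative by edgeR: EIF4A1P10, EIF4A1P2, EIF4A1P4, EIF4A1P7 and EIF4A2P4, named after their values were seen. EIF4A1P7 stood at 0.009002, 0.026 and 0.02487 CPM in HEK-293T siNegative and at 1.328, 1.353 and 0.9692 CPM in HT-1080 siNegative. EIF4A1P10 stood at 2.31 CPM ± 0.394 and 6.08 CPM ± 0.867 (SD, n = 3). In HEK-293T siHNRNPH1 replicate 1, the library with the highest EIF4A1, EIF4A1P10 was also highest in its group, at 4.624 against 2.398 and 2.127 CPM. The part of misassigned reads in these values was not tested.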
